A study of Mus musculus with 8 samples.

Results

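The V segments of the T cell receptor alpha and beta loci were examined in 8 bulk RNA libraries of regulatory T cells (Tregs, CD4+ T cells that restrain immune responses). Members were the rows of the deposited count table whose symbol starts with Trav or Trbv followed by a digit. There were 132 such rows, 109 Trav and 23 Trbv, among 38406 rows in all. The cells came from male C57BL/6 mice that were 2 months old (young) or more than 6 months old (aged). Cardiotoxin, which lyses muscle fibres, had been injected at 0.9 µg per muscle into the tibialis anterior, quadriceps and gastrocnemius, and spleen and muscle were taken 4 days later. The 4 groups, spleen and muscle at each age, had 2 libraries each. All groups thus come from injured mice, and no uninjured mouse is among them. For each library 1500 Tregs, sorted in consecutive rounds, went directly into Trizol. Neither the sort gate nor the number of animals behind a library is given in the labels, so p-values measure the spread between these libraries, which may be in part technical.

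An alpha beta T cell usually carries 1 kind of receptor, assembled during development in the thymus. A V segment is joined to a J segment in the alpha locus, and a V, a D and a J segment are joined in the beta locus. The joined exon is then spliced to a constant region, Trac for alpha and Trbc1 or Trbc2 for beta. The V segment encodes the leader peptide and most of the variable domain, ending just after a conserved cysteine where the junction begins. Which V segments a T cell population uses is one of the simplest descriptions of its repertoire, and Tregs of injured muscle are known as a population with expanded clones. In a bulk library of whole transcripts, reads that fall in a V segment are a small by-product, since no step enriched for the receptor.

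All 132 symbols matched 1 gene each in the GENCODE M21 annotation of mouse GRCm38 (the mm10 build). The Trav rows lie on chromosome 14 and the Trbv rows on chromosome 6, each as a short gene of a leader exon and a V exon. That annotation holds 163 V segments, of which 31 have no row of that name in the table and were not analysed here. It calls 7 of the Trav rows and 1 Trbv row (Trbv10) pseudogenes.

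Some V segments that recur in the results below, among them the 4 Trbv segments with the most counts, are shown here by their 3′ ends, because this end joins the J segment and is the end nearest the constant region in the transcript. The last 90 bases of the annotated transcript are printed 5′ to 3′, and capitals run from the conserved cysteine codon to the end of the V segment. The 4 Trbv segments share the opening of the junction, while the framework before it differs. Sequences are from GENCODE M21 (GRCm38).
Trbv12-2: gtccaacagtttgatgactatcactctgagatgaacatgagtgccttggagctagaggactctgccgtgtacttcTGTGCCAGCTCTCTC
Trbv13-2: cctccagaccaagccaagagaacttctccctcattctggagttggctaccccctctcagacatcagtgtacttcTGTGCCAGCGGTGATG
Trbv3: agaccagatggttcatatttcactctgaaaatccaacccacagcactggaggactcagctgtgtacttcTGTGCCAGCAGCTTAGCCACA
Trbv26: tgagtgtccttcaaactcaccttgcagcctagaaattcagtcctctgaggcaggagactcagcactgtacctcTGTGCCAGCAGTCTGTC
Trav8-2: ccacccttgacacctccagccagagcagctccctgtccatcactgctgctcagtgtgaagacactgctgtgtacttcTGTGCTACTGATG
Trav6-1: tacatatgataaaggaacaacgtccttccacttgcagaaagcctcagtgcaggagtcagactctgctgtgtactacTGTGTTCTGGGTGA

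The next sequences show how far a read could tell the leading segments from their closest copies. Capitals mark only the positions at which the segment and its copy differ within the last 90 bases. Trbv12-2 and Trbv12-1 differed at 5 of these positions, and over 240 bases at the 3′ end the pair differed by 29 edits, an identity of 87.9%.
Trbv12-2: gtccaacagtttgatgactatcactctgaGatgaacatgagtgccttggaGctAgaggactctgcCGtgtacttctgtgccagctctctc
Trbv12-1: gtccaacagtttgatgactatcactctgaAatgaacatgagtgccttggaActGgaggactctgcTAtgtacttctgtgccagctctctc
Trav3-3 and its 2 copies Trav3d-3 and Trav3n-3 differed at 2 of these positions and by 4 edits over 240 bases, an identity of 98.3%. The letters d and n mark copies of a Trav segment that arose when a large block of the mouse alpha locus was duplicated. In these 90 bases the d and n copies are the same.
Trav3-3: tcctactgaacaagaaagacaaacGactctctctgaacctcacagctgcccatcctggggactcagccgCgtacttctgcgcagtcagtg
Trav3d-3: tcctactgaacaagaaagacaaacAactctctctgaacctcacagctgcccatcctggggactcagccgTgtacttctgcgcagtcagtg

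V segments were read at very low depth. Library totals ran from 1969982 to 4008622 counts, and all 23 Trbv rows together held 43 and 45 counts in young and 74 and 48 in aged spleen, against 12 and 5 in young and 25 and 11 in aged muscle (replicates 1 and 2 in that order here and below). The 109 Trav rows together held 26 and 15, 64 and 45, 36 and 6, and 15 and 12 counts in the same order. A single count was therefore worth between 1.35% and 20% of the Trbv usage of a library, and between 1.56% and 16.7% of its Trav usage. The preparation amplified the RNA by transcription for 9 hours and by 15 cycles of PCR with no molecular identifiers described, so counts are not independent molecules, and the intervals given below cover counting error only. Young muscle replicate 1 stood apart from the other libraries in markers of myeloid cells: Lyz2, a macrophage and neutrophil lysozyme gene, had 288 counts there and 1 to 24 in each of the others.

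Of the 132 V segments, 61 had at least 1 count in any library, 41 Trav with 219 counts and 20 Trbv with 263. The other 68 Trav rows and 3 Trbv rows (Trbv10, Trbv21 and Trbv30) stood at 0 in every library. Among the detected Trav segments 16 appeared in 1 library, 10 in 2, 9 in 3, 5 in 4 and only Trav3-3 in 5. Trbv segments recurred in more libraries, with 7 of them in 4, 6 in 5, Trbv13-2 in 6 and Trbv12-2 in all 8. A total of 10 or more counts was reached by 8 Trav and 11 Trbv segments, which held 111 and 214 of the counts.

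Trbv12-2 (ENSMUSG00000094525.2, chr6:41118851-41119364, plus strand), a beta V gene, was the segment read most. It had 15 and 19 counts in young and 25 and 11 in aged spleen, against 3 and 1 in young and 5 and 3 in aged muscle. It held 34.9% and 42.2% of the Trbv counts in young and 33.8% and 22.9% in aged spleen, against 25% and 20% in young and 20% and 27.3% in aged muscle. Its share led in 6 of the 8 libraries, and the exceptions were young muscle replicate 2, where Trbv1 had 2 of 5 counts, and aged muscle replicate 1, where Trbv3 had 8 of 25. The precision of these shares was low. The exact 95% binomial (Clopper-Pearson) interval ran from 27.7% to 57.8% in young spleen replicate 2 and from 0.505% to 71.6% in young muscle replicate 2. Summed over the libraries of a tissue, Trbv12-2 held 70 of 210 Trbv counts in spleen (33.3%, exact interval 27.0% to 40.1%) and 12 of 53 in muscle (22.6%, 12.3% to 36.2%), and these intervals overlap.

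As CPM, counts scaled to a common library total, Trbv12-2 stood at 6.31 and 6.79 in young and 6.24 and 3.82 in aged spleen, against 1.15 and 0.508 in young and 1.91 and 1.40 in aged muscle. All 4 muscle libraries lay below all 4 spleen libraries. Of all rows tested, 12.5% showed such a split in the same direction. It was the only V segment of the 132 with enough counts to enter the test across all rows, which used edgeR's quasi-likelihood test with Benjamini-Hochberg adjustment over 14772 rows. Its log2 fold change, muscle against spleen, was -2.97 ± 1.07 (SE) in young mice, with an edgeR adjusted p of 0.0594 and an unadjusted p of 0.0144. In aged mice it was -1.63 ± 0.99, with an adjusted p of 0.255. Neither passed the threshold of 0.05. With only the 4 libraries of young mice in the edgeR fit, the change was -2.90 with an adjusted p of 0.0422, which did pass. Without young muscle replicate 1 it was -3.74 with an edgeR adjusted p of 0.0832.

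Between ages no difference in Trbv12-2 passed the test, and each was smaller than its standard error with all 8 libraries in the fit. The log2 fold change, aged against young, was 0.81 ± 1.14 in muscle (edgeR adjusted p = 0.78) and -0.53 ± 0.90 in spleen (adjusted p = 0.83). The difference of these changes was 1.35 ± 1.45 (adjusted p = 0.79). Single libraries moved these values: leaving out 1 at a time, the change ran from 0.35 (without young muscle replicate 2) to 1.56 (without young muscle replicate 1) in muscle, with 0.48 without aged muscle replicate 1. In spleen it ran from -0.93 (without aged spleen replicate 1) to -0.21 (without aged spleen replicate 2). The difference ran from 0.87 to 2.08 ± 1.83, the latter without young muscle replicate 1, and its edgeR adjusted p stayed at 0.74 or above. In the share of Trbv counts, the young and aged spleen libraries did not overlap, with means of 38.6% and 28.4%, while in muscle the ages did overlap.

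**Figure D1:**
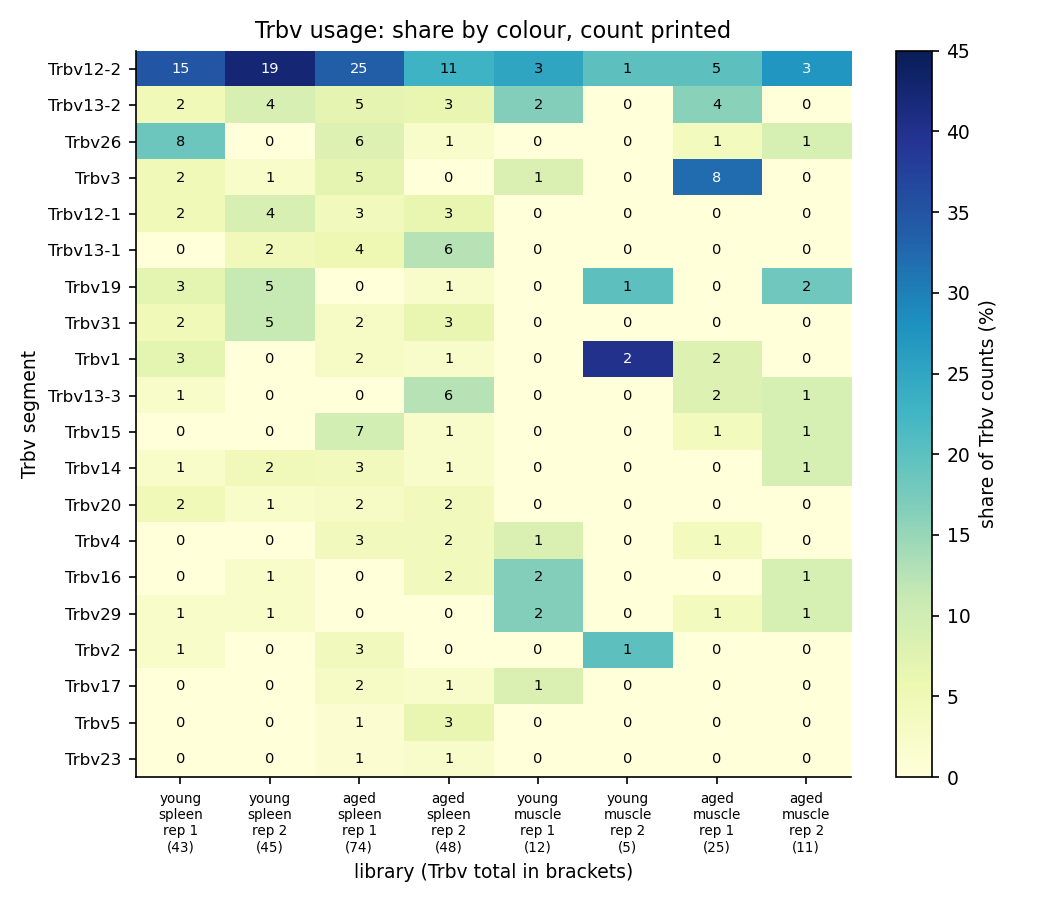
Share of each detected Trbv segment (rows, colour scale in percent of the library's Trbv counts) in the 8 libraries (columns, Trbv total in brackets), with the count printed in each cell. Trbv12-2 has a count in all 8 libraries, and most cells of the muscle columns hold 0 to 2 counts.

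No V segment was called in any of the 5 comparisons, so the count of members called was 0 of 1 tested throughout, with 1 at an unadjusted p under 0.05 (Trbv12-2 between tissues in young mice) and 0 called by DESeq2. Over all rows tested, edgeR called 2.02% for age in muscle, 4.24% for age in spleen, 22.3% for tissue in young mice, 18.8% for tissue in aged mice and 2.52% for the difference of the age effects. With every row of at least 1 count in the test, 61 V segments entered and again 0 were called, with 1 (Trbv12-2) at an unadjusted p under 0.05, against 2.98%, 4.14%, 15.3%, 14.1% and 2.67% of all rows in the same order. At these depths a change in most V segments was not detectable.

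Trbv12-1, Trbv31 and Trbv20 had a count in every spleen library and in no muscle library. Trbv12-1, the close relative of Trbv12-2 (chr6:41113550-41114067, plus strand), had 2 and 4 counts in young and 3 and 3 in aged spleen. Trbv31, which lies beyond the constant regions on the opposite strand (chr6:41557691-41558452, minus strand), had 2 and 5 in young and 2 and 3 in aged spleen. Trbv20 had 2 and 1 in young and 2 and 2 in aged spleen. With Trbv12-2 these were the 4 of 23 Trbv segments whose muscle libraries all lay below the spleen libraries in CPM, 0 of 23 lay above, and 0 of 109 Trav segments split either way. No Trav segment had a count in all 4 libraries of a tissue, so none could split. Among Trbv segments only Trbv12-2 could have lain above. The 4 that lay below are 17.4% of the Trbv segments, beside 12.5% of all rows tested, a set that held no V segment but Trbv12-2. Against a floor of 3 counts over the 4 muscle libraries, the pooled spleen CPM of Trbv12-1 and Trbv31 was 3.10-fold higher, and that of Trbv20 1.81-fold. Trbv13-1, with 12 counts in 3 spleen libraries and 0 in muscle, also stood 3.10-fold above this floor. The spleen counts carry counting error of their own, so these folds are not lower limits. As shares, the muscle depth could not separate Trbv12-1, Trbv31 and Trbv20 from spleen. With 0 of 53 muscle Trbv counts, the exact 95% upper limit of the share is 6.72% (3 counts of the total would be 5.66%). Trbv12-1 and Trbv31 each held 5.71% in spleen (exact interval 2.99% to 9.77%) and Trbv20 held 3.33% (1.35% to 6.75%), so the intervals overlap.

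The remaining Trbv segments differed widely between the replicates of a group. Trbv13-2, one of the Vbeta8 genes that antibodies and superantigens distinguish in mice, had 2 and 4 counts in young and 5 and 3 in aged spleen, against 2 and 0 in young and 4 and 0 in aged muscle. Its group means lay between 6.5% and 8.33% of Trbv counts, with SDs of 11.8 and 11.3 percentage points (n = 2) in young and aged muscle. Trbv26 had 8 and 0 counts in young and 6 and 1 in aged spleen, against 0 and 0 in young and 1 and 1 in aged muscle. Trbv3 had 2 and 1, 5 and 0, 1 and 0, and 8 and 0 counts in the same order of groups, so the 32% it held in aged muscle replicate 1 stood beside 0 in replicate 2. Trbv1 had 3 and 0, 2 and 1, 0 and 2, and 2 and 0 counts. Trbv19 had 3 and 5, 0 and 1, 0 and 1, and 0 and 2. The lower segments Trbv2, Trbv16 and Trbv29 had 5 to 6 counts in all.

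Some segments separated the libraries of a comparison, at low counts. The share of Trbv segments that did so was above that of all rows tested only for lower values in muscle, at each age, and there by a small margin. The rows tested had passed a low-count filter, which Trbv12-2 alone of the V segments passed, so these shares are of unlike sets. In CPM, aged muscle lay above young muscle for 4 of 23 Trbv segments (17.4%; Trbv12-2, Trbv13-3, Trbv15 and Trbv26) and below for 0, against 25.8% and 16% of all rows tested. Aged spleen lay above young spleen for 6 of 23 (26.1%) and below for 3 (13%), against 38% and 15.1%. Young muscle lay below young spleen for 7 (30.4%) and above for 0, against 26.1% and 35.4%. Aged muscle lay below aged spleen for 9 (39.1%) and above for 1 (4.35%), against 30.2% and 35%. Among the 109 Trav segments these counts were 0 and 0 for age in muscle, 3 above and 1 below for age in spleen, 0 and 0 for tissue in young mice, and 6 below for tissue in aged mice. A group can lie above another only where both its libraries have a count. No Trav segment had that in young or aged muscle. Its counts of 0 for age in muscle, and of none above spleen, were therefore fixed beforehand. Among Trbv segments only Trbv12-2 had a count in both young muscle libraries.

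The largest of these differences in share within the Trbv locus was in Trbv12-2, which averaged 22.5% in young muscle and 38.6% in young spleen. In the Trav locus it was in Trav3-3, which averaged 3.33% in aged muscle and 20.5% in aged spleen. Trbv13-1 averaged 0% in aged muscle and 8.95% in aged spleen. The others named rest on few reads. Between ages in spleen, Trbv13-1 averaged 2.22% of Trbv counts in young and 8.95% in aged libraries, with 0 and 2 against 4 and 6 counts. Trbv15 had 0 and 0 against 7 and 1 counts, and Trbv4 had 0 and 0 against 3 and 2. In the other direction Trbv19 averaged 9.04% in young and 1.04% in aged spleen. Between ages in muscle, Trbv13-3 averaged 0% in young and 8.55% in aged libraries, from 2 counts and 1 count. Trbv29 had 1 and 1 counts in aged muscle and 0 in aged spleen.

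The alpha locus showed still less recurrence. Trav3-3 (ENSMUSG00000094828.5, chr14:53665929-53666506, plus strand) had the highest total, with 0 and 3 counts in young and 12 and 10 in aged spleen, against 1 and 0 in young and 1 and 0 in aged muscle. It held 18.8% and 22.2% of Trav counts in aged spleen and 20% in young spleen replicate 2, against 0 in young spleen replicate 1. Aged spleen lay above aged muscle, whose shares were 6.67% and 0%, without overlap. In all, Trav3-3 held 25 of 150 Trav counts in spleen (16.7%, exact interval 11.1% to 23.6%) and 2 of 69 in muscle (2.90%, 0.353% to 10.1%). Of those 25 spleen counts 22 came from the 2 aged libraries.

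Trav3-3 led in both aged spleen libraries, and the leading Trav segment differed between the other libraries. Trav8-2, annotated as a pseudogene, led in young spleen replicate 1 with 23.1% (6 counts), and it had 0 in replicate 2. In young spleen replicate 2, Trav3-3 and Trav5-1 shared the lead with 3 counts each. Trav4-3 led in young muscle replicate 1 with 25% (9 counts), Trav14n-3 in young muscle replicate 2 with 50% (3 of 6 counts), Trav6-1 in aged muscle replicate 1 with 26.7% (4 counts), and Trav10 and Trav19 in aged muscle replicate 2 with 16.7% each (2 counts each). In both young and aged muscle the libraries' leading segments had 0 counts in the other library of the group.

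Other Trav segments with many counts took most of them from 1 or 2 libraries. Trav17 had 9 of its 11 counts in aged spleen replicate 1, and Trav6-7-dv9, which can also be used by the delta locus, had 8 of 11 in young muscle replicate 1. Trav13-1 had 7 counts in aged spleen replicate 1, 4 in young muscle replicate 1 and 2 in aged muscle replicate 1. Trav12-2 had 5 of its 10 counts in young muscle replicate 1. Trav9-2 had 5 and 1 counts in young against 0 and 0 in aged spleen, so its mean share was 12.9% against 0%. Trav4-4-dv10 had 2 and 5 counts and Trav8n-2 had 1 and 2 counts in aged spleen, against 0 in aged muscle. Trav12-3 had 1 and 1 counts in aged spleen and 0 in young spleen.

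Whether a Trav row had any count went with how much of its sequence is its own. For each segment, the share of all 50-base stretches of its transcript that occur in no other annotated V segment was computed, since a read lying in a shared stretch cannot be assigned to 1 segment. Neither the read length nor the way the counting treated reads with several matches is given in the sources used here. The Trbv segments were nearly all distinct, with a median of 100% and a minimum of 98.8%, whereas the Trav median was 31.9%. All 34 Trav segments with no such stretch stood at 0. Of the 33 with up to 50%, 12 had a count (37 counts in all), and of the 42 above 50%, 29 had one (182 counts). Whether a segment with no stretch of its own could be counted at all is thus not known, and a 0 there cannot be read as lack of use.

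The same split followed the block duplication. Of 46 Trav segments without a copy letter, 31 had a count, 196 counts in all. Of 35 d copies 5 had one (11 counts), and of 28 n copies 5 (12 counts). The median share of distinct stretches was 59.0% without a letter, 1.01% in d copies and 0.164% in n copies. The split was also seen within bins of distinctness, but the bins did not match the classes in distinctness. Above 50% distinct stretches, 24 of 30 segments without a letter and 5 of 12 d or n copies had a count. Medians there were 75.1% without a letter and 63.6% in copies. At up to 50% it was 7 of 16 and 5 of 51, with medians of 28.4% and 0%. Of those 51 copies 31 had no distinct stretch, against 3 of the 16, and all of these stood at 0. Copy status apart from distinctness was not tested. Trav3d-3 and Trav3n-3, whose ends are printed above beside Trav3-3, both stood at 0. Trav11, the V segment of the semi-invariant receptor of natural killer T cells, and its copy Trav11d also stood at 0, and neither has a distinct stretch. Trav1, the V segment of the mucosal-associated invariant T cell receptor, is distinct over its whole length and had 3 counts in aged spleen replicate 1, 1 in young muscle replicate 1 and 0 elsewhere.

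**Figure D2:**
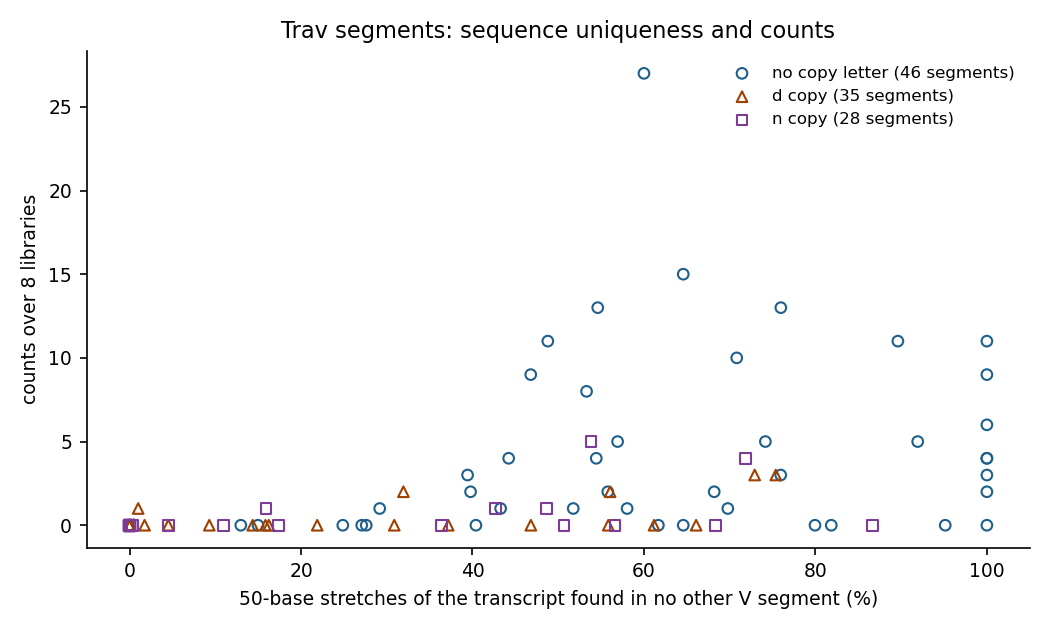
Counts over the 8 libraries (vertical axis) of the 109 Trav segments against the share of their 50-base stretches found in no other V segment (horizontal axis, percent), with circles for segments without a copy letter, triangles for d copies and squares for n copies. The 34 segments at 0% lie at 0 counts, and Trav3-3 is the highest point with 27 counts.

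Replicates were closer in Trbv usage in spleen than in muscle, and shared little Trav usage. The total variation distance, which is the share of usage that would have to move for 2 libraries to match (0% for the same usage, 100% for no segment in common), was computed for all pairs of libraries. For Trbv the replicates lay 35.2% apart in young and 38.8% in aged spleen, and 80% apart in young and 60% in aged muscle. These 4 averaged 53.5%, beside 56.7% over the 24 pairs from different groups (range 32.0% to 75.8%). Both spleen replicate pairs lay below every pair of a spleen and a muscle library, of which the lowest was 49.7%, and the mean within groups was raised by young muscle, with 12 and 5 counts. For Trav it was 89.5%, 63.6%, 100% and 100%, so the replicates of both muscle groups had no Trav segment in common. The Trav mean was 88.3% within groups and 83.4% between groups. By relation, Trbv pairs of the same tissue and other age averaged 50.5%, pairs of the other tissue and same age 58.7%, and pairs that differed in both 61.0%.

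In counts of segments, both young spleen libraries held 9 of the 15 Trbv segments found in either, both aged spleen libraries 14 of 19, both young muscle libraries 1 of 10 (Trbv12-2) and both aged muscle libraries 5 of 12. For Trav the same counts were 2 of 17, 6 of 28, 0 of 15 and 0 of 20. Young muscle shared fewest at both loci, with aged muscle equal to it for Trav. The part of depth in this was not tested. The chi-square of counts between replicates, divided by its degrees of freedom, was 1.47 to 1.68 for Trbv and 1.42 to 3 for Trav, where 1 is the value of pure sampling. Most expected counts were under 5, so these ratios are a description and no test.

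**Figure D3:**
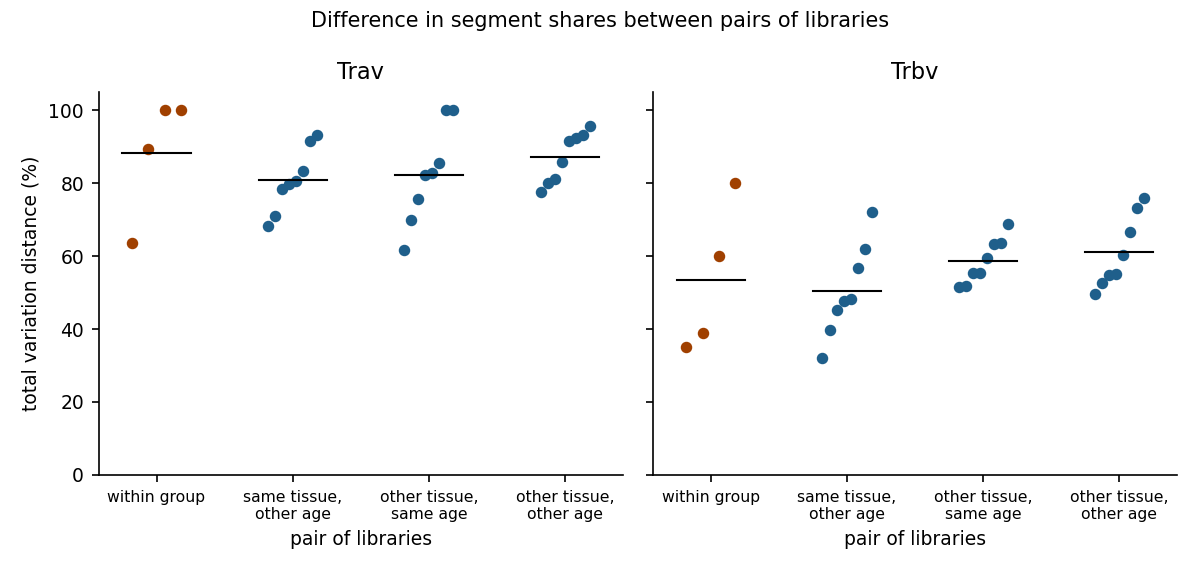
Total variation distance (percent) between segment shares for pairs of libraries, by how the pair is related, for Trav and Trbv; each point is a pair and each line a mean. The 4 pairs within a group overlap the range of the pairs between groups at both loci.

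The effective number of segments, defined below, was largest in aged spleen, the group with the most counts at both loci. Library by library it did not always follow the counts, and the part of depth was not tested. The highest Trbv value was in aged spleen replicate 2, with 48 counts against 74 in replicate 1. The effective number, the number of equally used segments that would give the same Shannon entropy, was 8.29 and 6.67 for Trbv in young and 10.4 and 12.3 in aged spleen, against 6.45 and 3.79 in young and 6.68 and 7.19 in aged muscle. The aged spleen libraries were the highest, and young muscle replicate 2, with 5 counts, the lowest. For Trav the values were 8.07 and 8.03, 13.2 and 12.1, 8.0 and 3.46, and 8.62 and 9.52 in the same order. Aged spleen was again highest and held the most Trav counts of any group. By tissue, the Trbv mean was 6.03 ± 1.52 (SD, n = 4) in muscle and 9.42 ± 2.47 in spleen, and the Trav mean 7.40 ± 2.70 and 10.3 ± 2.68.

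In draws of equal depth the Trbv mean of muscle lay slightly above that of spleen, and the other differences kept their sign. This is another scale, since a draw of 5 or 6 counts holds no more segments than counts. The sizes of the differences therefore cannot be compared with those of the effective number. The expected number of Trbv segments in a draw of 5 counts was 3.77 and 3.51 in young and 3.92 and 4.23 in aged spleen, against 4.14 and 4 in young and 3.74 and 4.33 in aged muscle. The muscle mean was then 0.198 above the spleen mean, with SDs of 0.248 in muscle and 0.298 in spleen (n = 4) and overlapping ranges. The effective number had put the muscle mean 3.40 segments below (a difference of -3.40). For Trav, in draws of 6, muscle minus spleen was -0.103 and aged minus young was 0.620 segments, against 0.201 for Trbv. The Trav values in such draws were 4.59 and 4.95 in young and 4.94 and 4.91 in aged spleen, against 4.41 and 4 in young and 5.02 and 5.55 in aged muscle. Aged spleen thus no longer led for Trav, with a mean of 4.93 against 5.28 in aged muscle. For Trbv its mean was 4.07, as in young muscle. Evenness (entropy over its maximum for the segments found, 1 for equal use) of Trbv was 0.791 to 0.887 in spleen and 0.864 to 0.961 in muscle, and of Trav 0.892 to 0.948 and 0.867 to 0.979. No p-value is given for these scores.

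**Figure D4:**
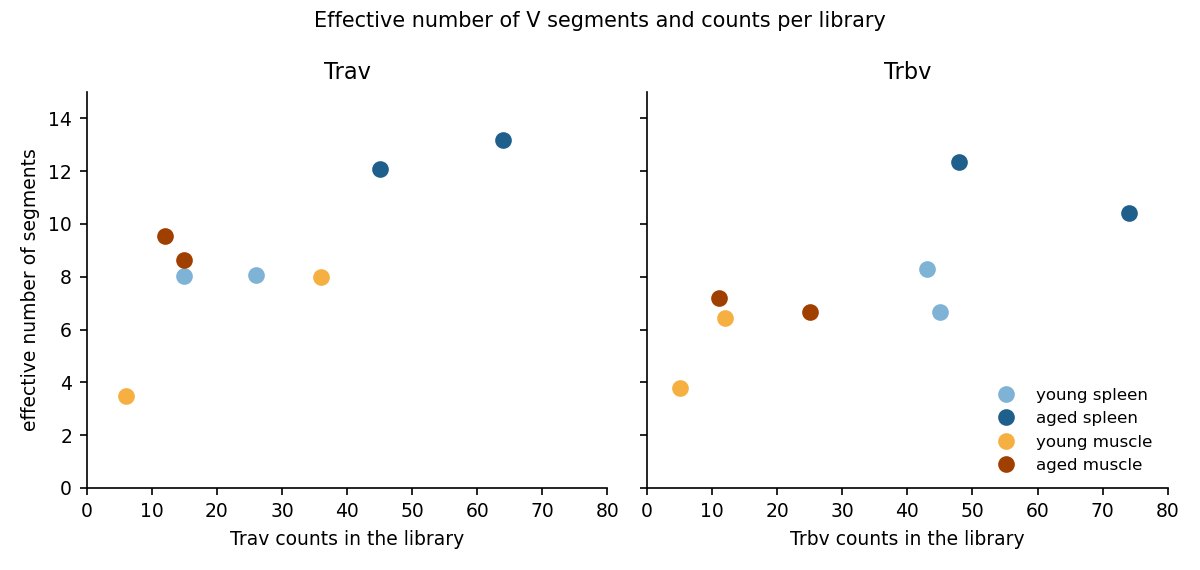
Effective number of segments (vertical axis) against the locus total in counts (horizontal axis) for each library, by group, for Trav and Trbv. Young muscle replicate 2 has the fewest counts and the lowest effective number at both loci, and the aged spleen libraries have the highest effective numbers.

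V reads made up a smaller part of the muscle libraries at the beta locus. Trbv rows summed to between 16.1 and 18.5 CPM in the 4 spleen libraries and to between 2.54 and 9.55 in the 4 muscle libraries, without overlap. Trav rows summed to 5.36 to 16.0 in spleen and 3.05 to 13.8 in muscle, and these ranges overlap. Of the other parts of the receptor transcript, Traj and the Trbc pair were read more than the V rows. Trbj was read less than Trbv, and Trac overlapped Trav. Traj rows summed to 109.5 to 148 CPM in spleen and 36.0 to 48.4 in muscle, Trbj rows to 2.14 to 7.23 and 0.767 to 2.03, and Trbc1 with Trbc2 to 784 to 910 and 448 to 484. Trac stood at 7.58 to 22.3 in spleen and 9.97 to 17.3 in muscle. In bulk RNA, fewer cells carrying a transcript and less RNA per cell cannot be told apart.

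Set against the constant regions, the tissue gap in Trbv narrowed. Per 100 counts of Trbc1 and Trbc2 there were 2.15 and 1.77 Trbv counts in young and 2.21 and 2.13 in aged spleen, against 1.01 and 0.525 in young and 2.00 and 1.14 in aged muscle. Means were 2.07 ± 0.20 (SD, n = 4) in spleen and 1.17 ± 0.62 in muscle, and aged muscle replicate 1 lay within the range of spleen.

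**Figure D5:**
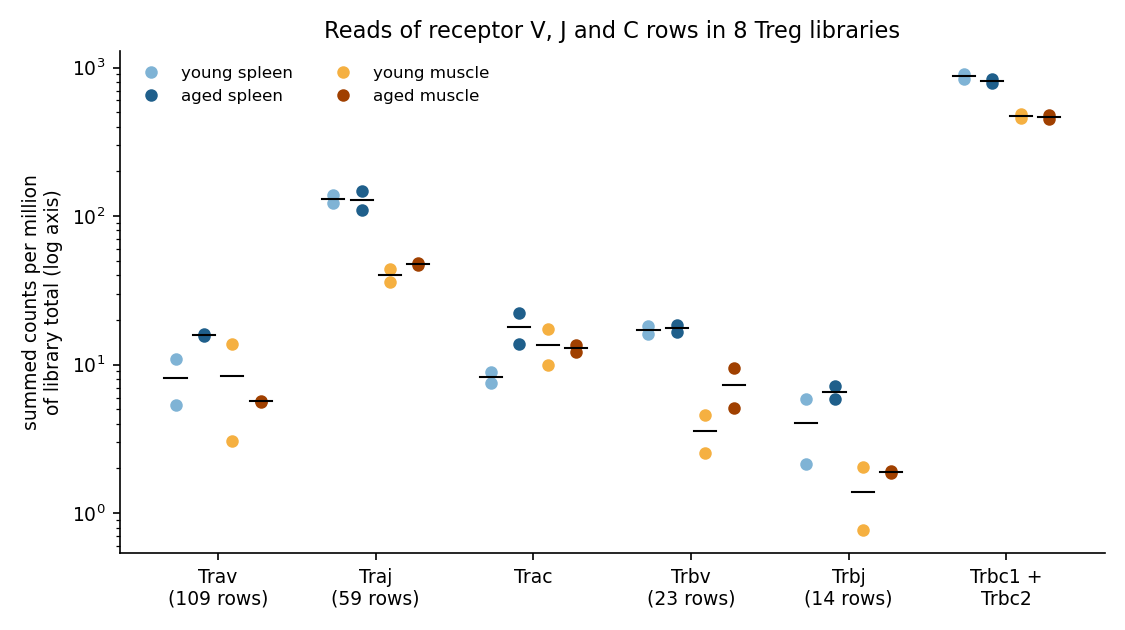
Summed CPM (log axis) for the V, J and constant region rows of the alpha and beta loci; each point is a library, coloured by group, and each line a group mean. The muscle points lie below the spleen points for Traj, Trbv, Trbj and the Trbc pair, and overlap them for Trav and Trac.

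Among the joined and signalling partners of the V segments, several rows had enough counts for the test. Of the 3 constant regions, 2 fell in muscle in each age and 0 rose, against 10.9% of all rows lower in young and 9.27% in aged mice. Trbc1, with 207 and 140 counts in young muscle and 474 and 485 in young spleen, fell by 1.41 ± 0.18 on the log2 scale (edgeR adjusted p = 6.36e-05). In aged mice it fell by 1.19 ± 0.18 (adjusted p = 0.000374). Trbc2 fell by 0.92 ± 0.15 in young mice (adjusted p = 0.000411) and by 0.76 ± 0.15 in aged mice (adjusted p = 0.00254). These 2 genes encode nearly the same constant domain, so how reads were divided between them is uncertain. Trac, with 26 and 34 counts in young muscle and 18 and 25 in young spleen, had log2 fold changes of 0.59 ± 0.51 in young and -0.53 ± 0.49 in aged mice and was not called. Trbc1 was called lower in both ages under all 13 alternatives run, and Trbc2 in all but the aged comparison without aged spleen replicate 1 (edgeR adjusted p = 0.0566). Without young muscle replicate 1 the young change was -1.56 in Trbc1 and -0.91 in Trbc2.

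J segments of the alpha locus were also lower in muscle, while Trav and Trac overlapped between tissues. Traj27 alone had 1178 counts over the 8 libraries, against 283 for Trac, and 33 of 59 Traj rows had none. Whether the Traj reads come from joined receptor transcripts was not tested. Of 59 Traj rows 5 were tested, and 3 of these fell in muscle in each age while 0 rose, beside 10.9% of all rows tested lower in young and 9.27% in aged mice. Traj27 held 54.6% to 70.6% of the Traj counts of every library. It had 176 and 274 counts in young and 248 and 233 in aged spleen, against 54 and 56 in young and 73 and 64 in aged muscle. It fell in muscle by 1.93 ± 0.26 on the log2 scale in young mice (edgeR adjusted p = 9.86e-05) and by 1.36 ± 0.26 in aged mice (adjusted p = 0.00211). Traj18, the J segment of the natural killer T cell receptor, had 28 and 42, 94 and 87, 16 and 4, and 17 and 13 counts, and it fell in both ages (edgeR adjusted p = 0.040 and 0.0143). Traj27 was called in both ages under all 13 alternatives, whereas Traj18 missed the threshold in young mice under 8 of them (adjusted p of 0.0533 to 0.201, DESeq2 among them at 0.0563) and in aged mice under 3, each without 1 aged library (edgeR adjusted p of 0.0639 to 0.129). Without either aged spleen library, or without aged muscle replicate 2, 1 Traj row was called in aged mice, and without young spleen replicate 1, 1 in young mice. Trav11, its partner in that receptor, stood at 0 and has no stretch of its own. None of the 14 Trbj rows had enough counts to be tested.

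Of 9 genes of the receptor complex and its signalling (CD3 chains, Cd4, Cd28, Lck, Zap70 and Lat), 3 fell in muscle in young and 7 in aged mice, and 0 rose, beside the same 10.9% and 9.27% of all rows. The kinase Lck fell by 1.12 ± 0.15 in young and by 1.06 ± 0.15 in aged mice, and the kinase Zap70 fell by 1.34 ± 0.18 in aged mice. Without either aged spleen library 2 of the 9 were called in aged mice, without aged muscle replicate 2, 3 were, while in young mice 1 was called without either young spleen library and 6 without either aged muscle library. Of 11 genes of V(D)J recombination, which runs in developing and not in mature T cells, 8 were tested. The end-joining gene Xrcc6 fell in muscle in young mice by 1.13 ± 0.33 on the log2 scale (edgeR adjusted p = 0.0244), and no other of the 8 was called. This call was lost with DESeq2 (adjusted p = 0.0541) and without either young spleen library or young muscle replicate 2 (edgeR adjusted p = 0.167, 0.0866 and 0.0992). In aged mice 1 recombination gene was called lower in muscle with only the groups compared in the fit, and 1 with every row of at least 1 count. In none of the constant, receptor complex, recombination and Traj lists was a gene called with age in either tissue.

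Among markers of cells other than Tregs, those of gamma delta T cells were low, CD8 markers were read in every library, and several other classes varied between groups. Foxp3, the factor that defines Tregs, had 33 to 108 counts in every library. The Treg list (Foxp3, Il2ra, Ctla4 and Ikzf2) summed to 1589 to 2137 CPM in spleen and 2764 to 3485 in muscle. Of these 4 genes edgeR called 1 higher and 1 lower in muscle in young mice, and 2 higher and 0 lower in aged mice. With age it called 1 higher and 1 lower in each tissue, beside 2.02% of all rows in muscle and 4.24% in spleen. Reads of V segments of the delta locus were 2 in spleen and 2 in muscle, and of the gamma locus 0 in both. The gamma delta T cell list (4 genes in the table) summed to 0.383 to 5.08 CPM and the CD8 list (2 genes) to 7.61 to 15.2. Myeloid markers (9 genes, summed) were 27.9 to 50.4 CPM in spleen, 95.9 and 482 in young muscle, the higher in replicate 1, and 53.1 to 61.9 in aged muscle. B cell markers were 465 to 713 CPM in spleen and 288 to 356 in muscle, mostly Ighm. The NKT and innate-like list stood at 11.8 to 28.9 in spleen and 32.5 to 65.0 in muscle, and the muscle fibre list (6 genes) at 2.74 to 11.8 and 17.7 to 29.9. Of the 4 genes in the NKT and innate-like list, edgeR called 2 higher in muscle in young and 0 in aged mice. It called 0 of them lower. Over all 14772 rows tested, 1681 were called higher in young and 1413 in aged mice. The part of these cell classes in the lower Trbv, Trbc and Traj sums of muscle was not tested.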

How the data were processed

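Gene counts for 8 Treg libraries were used as the authors deposited them. Per the submitters' processing notes, the tools were TopHat2, TopHat, Picard, SAMtools 0.1.19 and HTSeq with the mm10 build; for the annotation, strand setting, read length and multiply matched reads, nothing is given in the sources used here. V segments were matched by symbol to GENCODE M21, and stretches of 50 bases were compared between their transcripts. Shares were taken within the Trav or Trbv total of a library, with exact (Clopper-Pearson) 95% intervals. Single segments and sums are given as CPM, counts scaled by the library total. All rows were tested with edgeR 4.0.16 (TMM, robust quasi-likelihood, low-count filter by group, 14772 rows, 1 coefficient for each of 4 groups, adjusted p under 0.05), with DESeq2 1.42.0 as an alternative, in R 4.3.3; the script was tested on simulated data. Members, lists and alternatives were chosen with earlier results of these data known. Segments were named if they were among the 10 with the highest mean share of a locus, led a library, or were among the 3 largest share differences whose libraries did not overlap in a comparison; Trav1, Trav11, Trbv20 and the copies are named besides, after their values were seen. Permutation tests of effective numbers had been planned, and are not reported because members were chosen with results known. The labels do not say whether replicate numbers pair libraries across groups, so the main fit held no replicate block. The 6 correlations of replicate deviations between groups ran from -0.065 to 0.256, which does not settle this.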

Additional observations from a re-analysis of the deposited data

Results flagged for a closer look

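Some age differences pointed in opposite directions in the 2 tissues, and this is why they are listed. Trav evenness, aged minus young, was 0.0754 in muscle and -0.0324 in spleen, with every library of one group on one side. Trbv evenness went the other way round, with -0.0530 in muscle and 0.0577 in spleen. The difference between tissues was not tested for either evenness, and these values rest on 5 to 74 counts per library. Trbv12-2 stood 0.825 CPM higher in aged than young muscle and, as a signed difference, -1.52 in spleen. For Trbv12-2 edgeR gave the difference between the tissues in this age effect as 1.35 ± 1.45 on the log2 scale, with an adjusted p of 0.79.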

How the results depend on the processing

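Depth limits nearly every value here, since 5 to 74 V counts per library set the step of each share. Trbv12-2 kept its direction in all 5 comparisons under every alternative run, and between tissues in young mice it ranged from -3.74 to -2.53 on the log2 scale with edgeR or DESeq2 adjusted p of 0.042 to 0.20. With only the groups compared in the fit, the number of V segments called between tissues in young mice rose from 0 to 1; leaving out any library, it stayed 0. With a replicate block, Trbv12-2 in that comparison was -3.05 (edgeR adjusted p = 0.0567) and 0 segments were called. The block changed no call of a V segment, while 5 in place of 3 receptor complex genes were called lower in muscle of young mice. Over all rows the block raised the number called from 3290 to 3626 in that comparison, and raised it in each of the others. Whether the numbers pair the libraries is not given in the labels. For age in muscle the fit of only those groups held no V segment, and DESeq2 gave no adjusted p for Trbv12-2 with age.

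The effective numbers depended on the measure. For Trav, muscle minus spleen was -2.94 as reported, 3.14 with the unbiased inverse Simpson index and -0.103 in equal draws; aged minus young was 3.96, 8.85 and 0.620. For Trbv, muscle minus spleen was -3.40, 2.94 with the inverse Simpson index, 0.198 in equal draws and -1.15 over families; aged minus young was 2.85 and, in equal draws, 0.201. Leaving out 1 library, Trav ran from -3.71 to -1.63 for tissue and from 2.81 to 4.70 for age, and Trbv from -4.32 to -2.43 and from 1.79 to 3.67. Between-group minus within-group distance was -4.88 points for Trav (-7.20 over families, -9.02 over segments of 10 or more counts) and 3.24 for Trbv (1.07 and -1.07). With stretches of 30 bases, chosen after seeing the data, 35 of 35 Trav segments with none of their own stood at 0. Permutation within the other factor was not run.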
